A study of Mus musculus with 9 samples.

Results

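The sugar and amino acid transporters are here the genes of 10 solute carrier families, which also include carriers of monocarboxylates, inositol and monoamines. They were taken by symbol, as every gene named Slc1, Slc2, Slc3, Slc5, Slc6, Slc7, Slc16, Slc36, Slc38 or Slc43 followed by a and a number. Of 98 such symbols in RefSeq, 93 had a probe set assigned to that gene alone, out of 18193 genes on the array, and each was represented by the probe set with the highest mean over the 9 arrays. The remaining 5 were not analysed here. Of the 93 genes, 47 had a signal above the filter on low values and were tested, and 46 lay below it.

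The arrays measured messenger RNA in the round, flat and hypertrophic cell layers of the proximal tibia growth plate of wild-type Black Swiss mice at birth (day 0). All groups share that strain, genotype and age, and differ in the layer that was cut by hand from frozen sections. Each layer was sampled in 3 litters, and 18 to 20 tibiae of a litter of 9 to 10 pups were pooled, so differences between pups of a litter are not seen. No label names the litter of a sample, so the replicate number in the titles was taken as the litter. In these bulk samples, fewer cells of a type and less RNA per cell cannot be told apart.

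As background, cells take up glucose through facilitative carriers of the Slc2 family and release lactate through monocarboxylate carriers of the Slc16 family, which matters in cartilage because it has no blood vessels and lives largely on glycolysis. Amino acids enter against their gradient with sodium (Slc1, Slc6 and Slc38 carriers) or with protons (Slc36), and exchangers of the Slc7 family, many of them bound to the heavy chains Slc3a1 and Slc3a2, then trade the accumulated amino acids for leucine, arginine or cystine. Uniporters such as Slc43a2 and Slc16a10 let amino acids leave down their gradient.

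Marker genes bear on how the layers can be read. All 5 tested round-layer markers (Prg4, Ucma, Cytl1, Barx1 and Gdf5) fell from the round to the flat layer, and the 3 tested hypertrophic markers (Col10a1, Mmp13 and Ibsp) were higher in the hypertrophic than in the flat layer. The summed signal of 10 chondrocyte markers lay between 101880 and 128310 in the round layer, 70127 and 107080 in the flat layer and 70147 and 78962 in the hypertrophic layer. Skeletal muscle markers (18 genes) summed to 161360 to 261720, 378110 to 610850 and 160110 to 375440 in the same order, with 17 of 18 rising from round to flat and 16 lower in the hypertrophic than in the flat layer. Osteoclast markers (10 genes) summed to 5357 to 6591, 13261 to 18198 and 74240 to 98535, and all 9 tested were higher in the hypertrophic than in the round layer. The lowest signal was 4.18 (Ihh) among the hypertrophic markers and 5.5 (Ocstamp) among the osteoclast markers. A signal above 0 was therefore not taken as detection. The round array of litter 1 stood apart in RNA integrity, where the control probe sets of actin gave a 3'/5' signal ratio of 4.25 and those of Gapdh 2.59, the remaining 8 arrays having 1.45 to 2.06 and 0.922 to 1.28.

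Of the 47 tested transporters, 19 passed the threshold (limma on log2(signal + 26) with litter as a block, adjusted p under 0.05) in at least 1 of the 3 layer comparisons, and 28 passed in none. Of all tested genes, 32.7% passed in at least 1 of them. Fold changes are on that scale and understate the change of low signals, and signals of different probe sets cannot be compared. All 4 tested Slc1 genes passed somewhere, as did 4 of 7 in Slc2, 4 of 8 in Slc38, 2 of 7 in Slc16, 1 of 8 in Slc7, 1 of 4 in Slc6, 1 of 4 in Slc36, 1 of 3 in Slc43, the 1 tested Slc5 gene and neither of the Slc3 heavy chains, of which 1 was tested. By the F test over layers, 17 of 47 transporters (36.2%) passed against 28.4% of all tested genes.

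**Figure D1:**
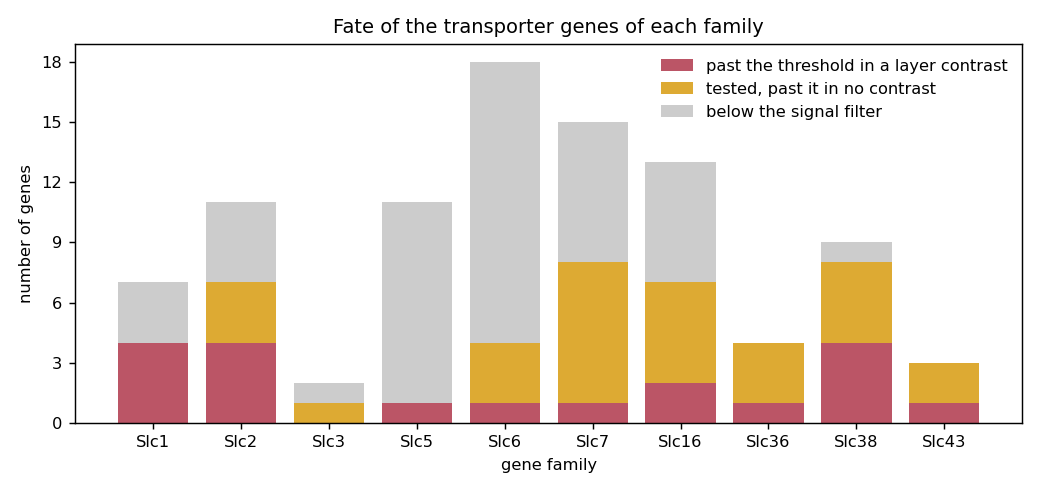
Number of transporter genes in each of the 10 families (vertical axis), split into genes past the threshold in at least 1 layer comparison, tested genes past it in none, and genes below the filter on low signals. Slc1 has 4 of 7 genes past the threshold, while Slc5 and Slc6 have 1 each of 11 and 18, most of the rest being below the filter.

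Between the flat and round layers, 5 transporters rose and 4 fell, 19.1% of 47 (17% of all tested genes differed, 8.39% higher and 8.64% lower). Between the hypertrophic and flat layers 8 rose and 1 fell (19.1%, against 11.3% of all tested genes, 6.12% higher and 5.22% lower). With arrays centred on their medians that split became 8 higher and 0 lower, and for all tested genes 838 higher and 448 lower in place of 692 and 591. Between the hypertrophic and round layers 9 rose and 6 fell (31.9%, against 25.1% of all tested genes, 12.4% higher and 12.7% lower). The median log2 differences of the 47 were -0.156, 0.116 and 0.033, beside -0.014, -0.005 and 0.006 for all tested genes. Among 133 tested genes of other solute carrier families, 14.3%, 15% and 21.8% passed in the same comparisons. Between the hypertrophic and flat layers 16 of these rose and 4 fell (median 0.127), so more rises than falls there are not particular to the 47. The 3 arrays of each layer did not overlap for 13, 9 and 20 of the 47, while 25.3%, 22.7% and 36.5% of all tested genes had no overlap. The 3 comparisons share arrays, so their counts are not independent of each other, and they lie near or moderately above the shares of all genes. Without the litter block 6, 5 and 11 transporters passed, and with round 1 and flat 3 left out together 9, 9 and 16. Leaving out any 1 flat or hypertrophic array reduced the hypertrophic minus flat count to between 3 and 5. The rises from round to flat numbered 3 without round 1, round 2, flat 1 or flat 2, and those from round to hypertrophic 5 without hypertrophic 3. With the skeletal muscle score of each array as a covariate, 1, 1 and 18 passed, the first being Slc1a4 and the second Slc36a2. That score was -1.021 to -0.218 on the round and 0.42 to 1.459 on the flat arrays, and highest on the flat array of each litter. With 9 arrays the fit cannot well separate score and layer in the first 2 comparisons, so no conclusion is drawn from a call lost in it. The 16 and 18 have no share of all tested genes beside them and are not read as a result about the transporters.

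**Figure D2:**
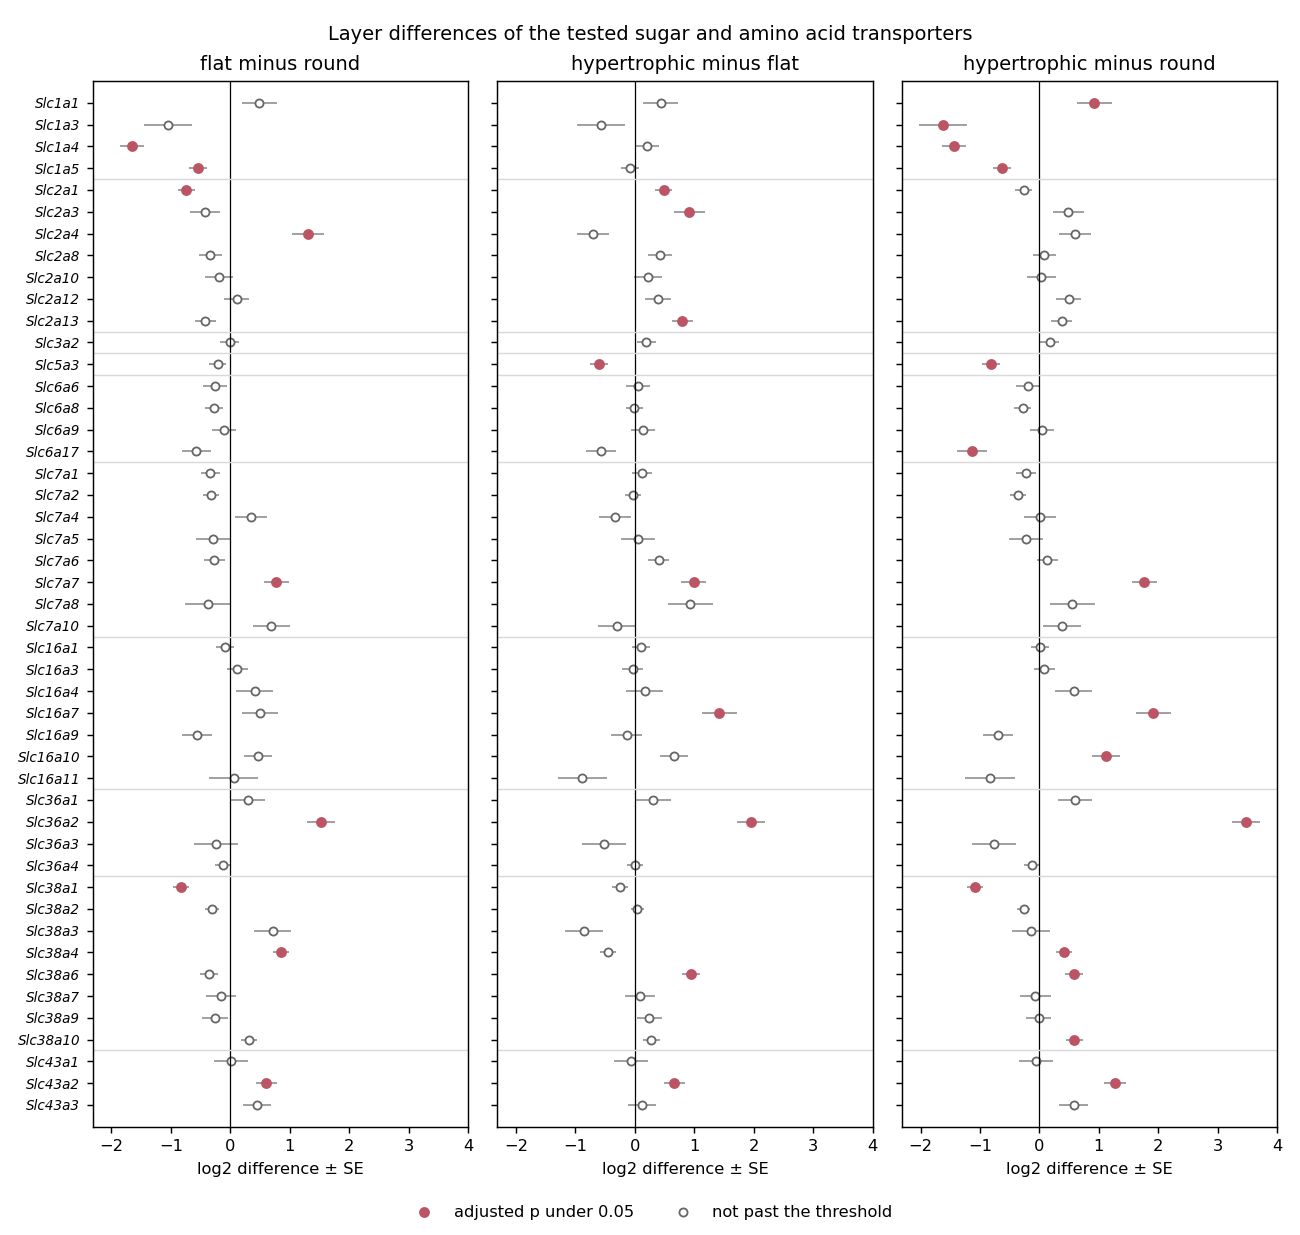
Log2 difference with its standard error (horizontal axis) for the 47 tested transporters in the 3 layer comparisons (flat minus round on the left, then hypertrophic minus flat, then hypertrophic minus round), filled where adjusted p is under 0.05. Slc36a2 is farthest to the right in hypertrophic minus round at 3.48, and Slc1a4 and Slc1a3 are farthest to the left there at -1.44 and -1.62.

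Among the carriers that move neutral amino acids with sodium, 3 were lower, past the threshold, in both the flat and the hypertrophic layer than in the round layer. They were Slc1a4 and Slc1a5, the exchangers ASCT1 and ASCT2 for alanine, serine, cysteine and, in the case of Slc1a5, glutamine, and Slc38a1, the glutamine carrier SNAT1. These genes were grouped after their values were seen, and Slc38a2, Slc38a3 and Slc38a4 did not follow them. The signal of Slc1a4 in litters 1 to 3 was 2637, 1581 and 1252 in the round layer, 919.8, 357 and 465 in the flat layer and 717, 665 and 503 in the hypertrophic layer. Every round array was above every flat and hypertrophic array, and round 1, whose 3'/5' ratios were high, was the highest. Slc1a4 fell 3.13-fold from the round to the flat layer (log2 -1.65 ± 0.20, SE, n = 3 litters, adjusted p = 0.000165) and was 2.72-fold lower in the hypertrophic than in the round layer (-1.44 ± 0.20, adjusted p = 0.000231). Without any 1 array the values stayed between -1.83 and -1.38 and between -1.66 and -1.21.

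Other probe sets of Slc1a4 were weaker. They gave -0.68 (adjusted p = 0.0614) and 0.23 (adjusted p = 0.764) for flat minus round, and -0.84 (adjusted p = 0.0166) and -0.40 (adjusted p = 0.524) for hypertrophic minus round. With the mean of all probe sets of the gene, flat minus round was -0.70 (adjusted p = 0.0527).

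Slc38a1 was also highest in the round layer, at 1732, 2161 and 2169 in the round layer, 978, 1018 and 1398 in the flat layer and 845, 859 and 1122 in the hypertrophic layer. All 3 round arrays were above all others, and flat and hypertrophic arrays overlapped. Slc38a1 fell by 0.83 ± 0.14 to the flat layer (adjusted p = 0.00124) and was 2.12-fold lower in the hypertrophic than in the round layer (-1.08 ± 0.14, adjusted p = 0.000105). Its second probe set gave -0.51 (adjusted p = 0.0786) and -0.57 (adjusted p = 0.0361). For Slc1a5 the signals were 1419, 1356 and 1501 in the round layer, 833, 1059.7 and 1019 in the flat layer and 999, 961 and 782 in the hypertrophic layer, so the fall was smaller but the round arrays again did not overlap with the others. It was -0.55 ± 0.15 for flat minus round (adjusted p = 0.0293) and -0.63 ± 0.15 for hypertrophic minus round (adjusted p = 0.01). The first of these calls was lost without round 1, round 2, round 3 or flat 1 (adjusted p = 0.0532 to 0.17), and the second without hypertrophic 3 (adjusted p = 0.0816). With the skeletal muscle score of each array as a covariate, flat minus round of Slc1a4 was still past the threshold. That of Slc38a1 was -0.79, little changed from -0.83, but no longer passed (adjusted p = 0.2), and that of Slc1a5 was -0.36 (adjusted p = 0.648).

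chr11:20332714-20332963 on the minus strand (GRCm38.p6, RefSeq) holds the 250 bases before the annotated start of Slc1a4, the member of this group that moved most. It is shown as the regulatory sequence of that gene, with the letters GCGTG, a core of the hypoxia response element, in capitals where they lie on either strand, 223 and 18 bases before the start.
Slc1a4: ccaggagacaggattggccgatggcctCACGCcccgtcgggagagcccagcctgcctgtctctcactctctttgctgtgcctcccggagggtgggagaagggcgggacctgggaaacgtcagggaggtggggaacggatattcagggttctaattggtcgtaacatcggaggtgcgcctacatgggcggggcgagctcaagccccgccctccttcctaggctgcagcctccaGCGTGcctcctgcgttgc
Over the 32851 windows of the same length in the RefSeq table, 28.16% hold GCGTG, and 38.6% hold GCGTG or ACGTG, the other core searched for. A match of letters is a description and not a binding site.

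The other Slc38 genes did not move together. Slc38a2, the SNAT2 carrier that is induced when amino acids run short, was at 6968, 6112 and 6327 in the round layer, 6158, 4375 and 5241 in the flat layer and 5911, 4986 and 5240.0 in the hypertrophic layer, and the 3 comparisons had adjusted p of 0.0865, 0.873 and 0.112. It was called in hypertrophic minus round (-0.32, adjusted p = 0.0393) only when round 1 and flat 3 were left out together. Slc38a4, the SNAT4 carrier of liver and muscle, had its highest layer mean in the flat layer by the probe set used, at 797, 859 and 1194 in the round layer, 1473, 1447 and 2358 in the flat layer and 1008, 1248 and 1551 in the hypertrophic layer. All flat arrays were above all round arrays, and the highest value was the flat array of litter 3, which also had the highest skeletal muscle score (1.459, in units of log2 relative to the mean of the 9 arrays).

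Slc38a4 rose by 0.86 ± 0.13 from the round to the flat layer (adjusted p = 0.000893). Hypertrophic minus flat was -0.45 ± 0.13 (adjusted p = 0.0521; past the threshold without round 1, adjusted p = 0.0333, and with quantile normalization, adjusted p = 0.0439). Hypertrophic minus round was 0.41 ± 0.13 (adjusted p = 0.0434), a call lost without any 1 of 7 arrays, the exceptions being flat 2 and flat 3 (adjusted p = 0.0542 to 0.231). A second probe set of Slc38a4 rose more from round to hypertrophic, by 1.43 (adjusted p = 0.00077). It was at 1.30 for flat minus round (adjusted p = 0.00243) and 0.13 for hypertrophic minus flat (adjusted p = 0.806). With the muscle score as a covariate, flat minus round of the first probe set was 0.72 and no longer passed (adjusted p = 0.228).

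Slc38a6 belongs to the same family and was highest in the hypertrophic layer, at 1258, 978 and 1016 in the round layer, 993, 954 and 609.7 in the flat layer and 1946, 1534 and 1426 in the hypertrophic layer. The hypertrophic arrays were all above the others. It rose by 0.94 ± 0.15 over the flat layer (adjusted p = 0.00204) and by 0.58 ± 0.15 over the round layer (adjusted p = 0.0151; lost without round 2, hypertrophic 1 or hypertrophic 3, adjusted p = 0.0651 to 0.0958). Both calls were lost with the mean of all its probe sets. Slc38a10 was at 8955, 6476 and 5194 in the round layer, 9959.7, 10364 and 5620.1 in the flat layer and 11286, 10659 and 8527 in the hypertrophic layer, with round and hypertrophic arrays overlapping across litters but higher in the hypertrophic layer within each litter. Hypertrophic minus round was 0.59 ± 0.14 (adjusted p = 0.00885), lost without round 2 or hypertrophic 3 (adjusted p = 0.069 and 0.0783) and without the litter block. Other probe sets at 0.62, 0.59 and 0.85 passed in the same comparison (adjusted p = 0.00801, 0.00812 and 0.00803). Those at 0.72 (adjusted p = 0.158) and -0.58 (adjusted p = 0.243) did not. With the mean of all its probe sets the difference was 0.40 (adjusted p = 0.0914). Flat minus round of Slc38a10 was 0.31 ± 0.14 (adjusted p = 0.155) and passed at 0.63 (adjusted p = 0.00227) with round 1 and flat 3 left out together.

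Slc38a3, a glutamine carrier of system N, Slc38a7 and Slc38a9, the lysosomal carriers of which Slc38a9 signals arginine to mTORC1, passed in no comparison. Slc38a3 was at 266, 288 and 295 on the round arrays and 399, 715 and 385 on the flat arrays, with all flat arrays above, and adjusted p = 0.149.

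**Figure D3:**
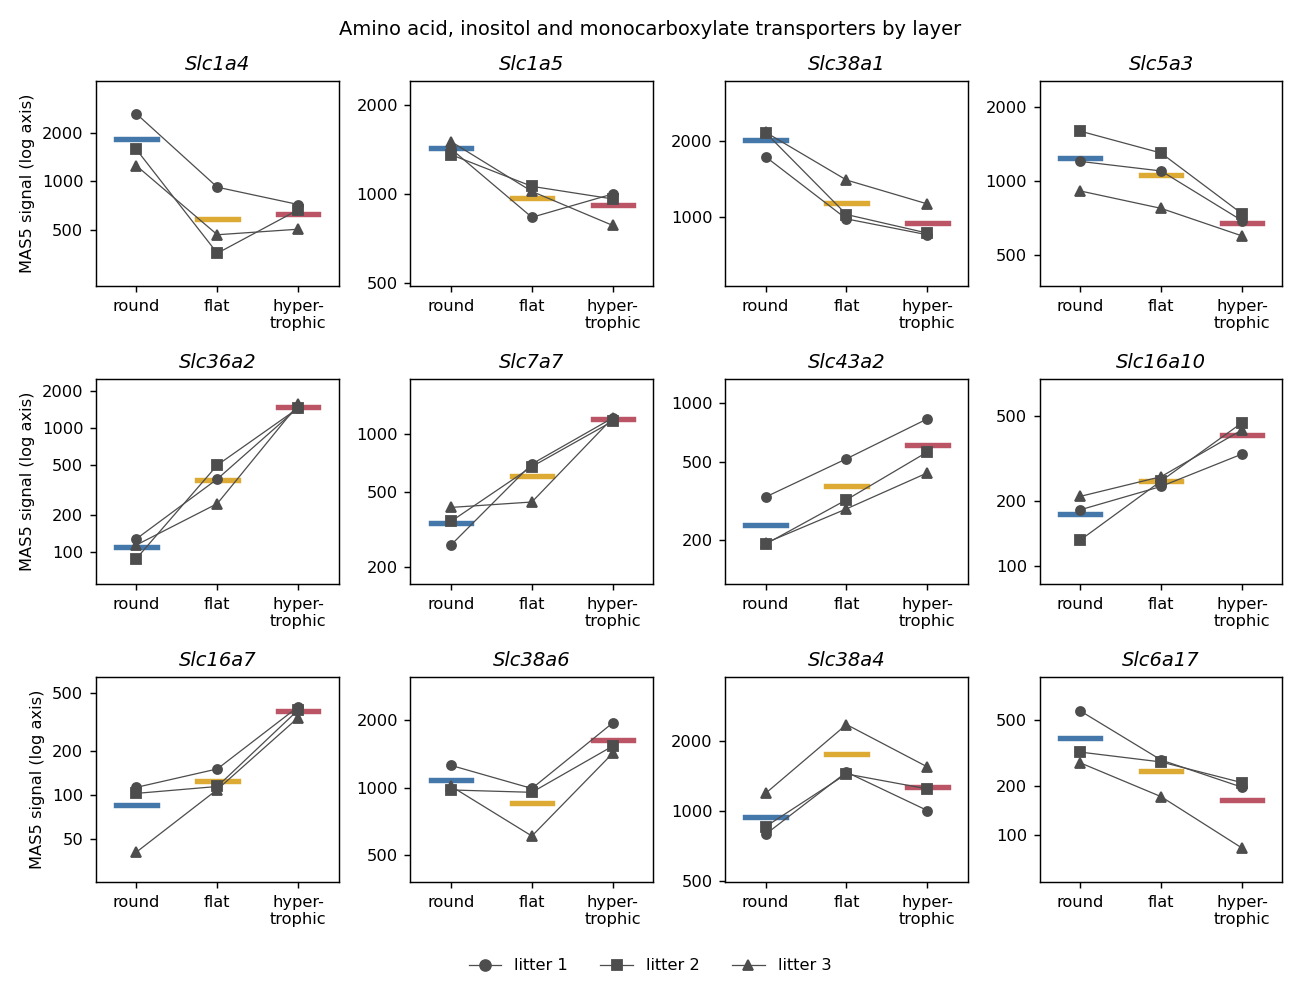
Signal on each of the 9 arrays (vertical log axis, MAS5 units) by layer for 12 transporters, with a symbol per litter, thin lines joining arrays of the same litter and a bar at each layer mean. Slc1a4, Slc1a5 and Slc38a1 have all round arrays above the rest, and Slc36a2, Slc7a7, Slc16a7 and Slc38a6 have all hypertrophic arrays above the rest.

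A second group of carriers was highest in the hypertrophic layer and moves small, cationic, branched-chain or aromatic amino acids. Grouping them was done after their values were seen. Slc36a2, the proton-coupled carrier PAT2 for glycine, alanine and proline, changed more than any other transporter tested. Its signal was 128, 88.8 and 114 in the round layer, 388, 503 and 246 in the flat layer and 1458, 1445 and 1550.1 in the hypertrophic layer. No array of a layer overlapped with another layer, and the 3 hypertrophic arrays lay between 1445 and 1550.1. Slc36a2 rose 2.89-fold from the round to the flat layer (1.53 ± 0.24, adjusted p = 0.000756) and 3.86-fold from the flat to the hypertrophic layer (1.95 ± 0.24, adjusted p = 0.000276). From round to hypertrophic the difference was 11.2-fold (3.48 ± 0.24, adjusted p = 6.36e-07), and without any 1 array it stayed between 3.26 and 3.62. The other members of the family did not follow. Slc36a1, the lysosomal PAT1, and Slc36a3 and Slc36a4 passed in no comparison, with hypertrophic minus round at 0.60 ± 0.29, -0.76 ± 0.37 and -0.13 ± 0.14 (adjusted p = 0.151, 0.155 and 0.541).

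Slc7a7, the y+LAT1 light chain that exchanges arginine and lysine for neutral amino acids, was at 262, 348 and 413 in the round layer, 698, 676 and 440.5 in the flat layer and 1218, 1170.4 and 1218 in the hypertrophic layer. The layers did not overlap. Its level rose 3.4-fold from the round to the hypertrophic layer (1.76 ± 0.21, adjusted p = 6.46e-05). The steps were 0.78 ± 0.21 (adjusted p = 0.0246) and 0.99 ± 0.21 (adjusted p = 0.00984). The first was lost without round 1, round 2, flat 1 or flat 2 (adjusted p = 0.0867 to 0.149) and the second without flat 3, hypertrophic 1 or hypertrophic 3 (adjusted p = 0.0531 to 0.0632). With the muscle score as a covariate the steps were 1.47 (adjusted p = 0.0956) and 0.46 (adjusted p = 0.582). A second probe set gave 1.20 for hypertrophic minus round (adjusted p = 0.0125), but its steps of 0.66 and 0.54 did not pass (adjusted p = 0.177 and 0.333). With the mean of all its probe sets the steps of Slc7a7 were 0.72 and 0.77 (adjusted p = 0.0615 and 0.0628).

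Slc7a7 is also the 1 gene of the 34 tested transporters with a RefSeq promoter here whose windows hold TGATGNAAN, the core of the amino acid response element bound by ATF4, a motif found in 2 of the 46 windows of these genes and in 3.44% of all windows. The window shown ends at the most upstream annotated start on the minus strand, chr14:54417945-54418194 (GRCm38.p6), with the match in capitals 141 bases before the start.
Slc7a7: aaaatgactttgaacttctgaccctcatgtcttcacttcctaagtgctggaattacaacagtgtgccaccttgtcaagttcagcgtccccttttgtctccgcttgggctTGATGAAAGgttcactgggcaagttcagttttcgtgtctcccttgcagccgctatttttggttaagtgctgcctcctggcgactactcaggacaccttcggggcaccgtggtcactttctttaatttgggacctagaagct
A window of another annotated start of Slc7a7 holds a further match 243 bases before that start.

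Slc43a2, the LAT4 uniporter of branched-chain amino acids, was at 331, 189.7 and 192 in the round layer, 519, 320.2 and 288 in the flat layer and 832, 563 and 439.9 in the hypertrophic layer. Within each litter the signal stepped up from round to flat to hypertrophic, but litter 1 was above the others and layers overlapped except for hypertrophic against round. Slc43a2 rose 2.41-fold over the round layer (1.27 ± 0.18, adjusted p = 0.00026). The single steps were 0.61 ± 0.18 (adjusted p = 0.0381; lost without any 1 array, adjusted p = 0.0582 to 0.136) and 0.66 ± 0.18 (adjusted p = 0.0341; lost without any 1 flat or hypertrophic array, adjusted p = 0.086 to 0.171). Slc43a1 and Slc43a3 passed in no comparison.

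Slc16a10, the TAT1 uniporter of aromatic amino acids, was at 183, 132 and 211 in the round layer, 235, 249 and 261 in the flat layer and 332, 466 and 431 in the hypertrophic layer. It rose 2.18-fold from round to hypertrophic (1.12 ± 0.23, adjusted p = 0.00396), with no overlap between any layers, while the single steps had adjusted p of 0.206 and 0.0987. Its second probe set was at 0.32 (adjusted p = 0.539). Markers of other cell types were also higher in the hypertrophic layer. From the round to the hypertrophic layer the summed osteoclast signal went from 5357 to 6591 up to 74240 to 98535, 7 osteoblast markers from 64640 to 90098 up to 120860 to 140390, and 10 macrophage markers from 13097 to 14217 up to 21100 to 26155. All 9 tested osteoclast markers and 6 of 7 osteoblast markers rose, but of the 10 macrophage markers 3 rose and 1 fell, with a median log2 difference of 0.038. Neutrophil markers (8 genes) went from 2242 to 3160 up to 7047 to 16224, and all 4 tested rose. Of the erythroid markers 2 of 2 tested rose, and of the endothelial markers 2 of 10. The part of these cell types in the rise of Slc36a2, Slc7a7, Slc43a2 and Slc16a10 was not tested.

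Carriers of acidic amino acids went opposite ways. Slc1a3, the glutamate carrier GLAST, was at 414, 425 and 243 in the round layer, 234, 135 and 118 in the flat layer and 38.9, 193 and 103 in the hypertrophic layer, and all round arrays were above the others. It fell 3.08-fold from round to hypertrophic (-1.62 ± 0.41, adjusted p = 0.0112), a call lost without round 1 (adjusted p = 0.0554) or hypertrophic 1 (-0.98, adjusted p = 0.0512). Flat minus round was -1.05 ± 0.41 (adjusted p = 0.1) and passed without hypertrophic 1 (adjusted p = 0.0203). Slc1a1, the EAAC1 carrier of glutamate and cysteine, was at 148, 122 and 186 in the round layer, 315, 244 and 138 in the flat layer and 307, 285 and 332 in the hypertrophic layer. The hypertrophic arrays were all above the round arrays, and the rise was 0.92 ± 0.29 (adjusted p = 0.0377), lost without round 1, round 2 or any 1 hypertrophic array (adjusted p = 0.0724 to 0.171). Slc6a17, a vesicular carrier of neutral amino acids in neurons, was at 564, 318 and 274 in the round layer, 285, 278 and 172 in the flat layer and 195, 208 and 84.0 in the hypertrophic layer. It fell 2.2-fold from round to hypertrophic (-1.14 ± 0.25, adjusted p = 0.00557), whereas its second probe set was at 0.00 (adjusted p = 1).

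Inositol carriers, which regulate cell volume by taking up this osmolyte, also differed. The sodium-coupled Slc5a3 was at 1198, 1592 and 908 in the round layer, 1096, 1296 and 771 in the flat layer and 688, 733 and 596 in the hypertrophic layer. Every hypertrophic array was below every round and flat array. Slc5a3 fell by 0.82 ± 0.15 from round to hypertrophic (adjusted p = 0.00149) and by 0.60 ± 0.15 from flat to hypertrophic (adjusted p = 0.0201; lost without flat 1, flat 2, hypertrophic 1 or hypertrophic 2, adjusted p = 0.0739 to 0.144). Its second probe set gave -0.80 (adjusted p = 0.00735) and -0.57 (adjusted p = 0.0759). The proton-coupled Slc2a13 was at 685, 699 and 662 in the round layer, 487, 687 and 378 in the flat layer and 879.7, 912 and 879 in the hypertrophic layer, with the hypertrophic arrays above all others. It rose 1.73-fold from flat to hypertrophic (0.79 ± 0.18, adjusted p = 0.0122; lost without flat 1, flat 3, hypertrophic 1 or hypertrophic 3, adjusted p = 0.0615 to 0.0871), and its flat minus round difference passed only without flat 2 (-0.62, adjusted p = 0.0418). The taurine carrier Slc6a6, the creatine carrier Slc6a8 and the glycine carrier Slc6a9 passed in no comparison, with hypertrophic minus round at -0.20 ± 0.20, -0.28 ± 0.15 and 0.04 ± 0.20. A second probe set of Slc6a8 did, at 0.67 for hypertrophic minus flat (adjusted p = 0.0247) and 0.80 for hypertrophic minus round (adjusted p = 0.00416), so probe sets of this gene disagree.

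Slc3a2, Slc7a5 and Slc7a1, which were named whatever their result, were called in no layer comparison. Slc3a2, the heavy chain 4F2hc, was at 2464, 2049 and 2513 in the round layer, 2071, 2983 and 2011 in the flat layer and 2532, 2742 and 2654 in the hypertrophic layer, with differences of -0.01 ± 0.16, 0.19 ± 0.16 and 0.18 ± 0.16 (flat minus round first, then the steps to the hypertrophic layer from flat and from round; adjusted p = 0.977, 0.533 and 0.462). Its leucine-carrying light chain LAT1, Slc7a5, was at 1743, 463 and 474 in the round layer, 648, 495 and 655 in the flat layer and 804, 435 and 679.5 in the hypertrophic layer. The round array of litter 1 was far above the other 8, and adjusted p was 0.549, 0.935 and 0.605. The arginine carrier CAT-1, Slc7a1, was at 3193, 1321 and 1402 in the round layer, 1923, 1358 and 1119 in the flat layer and 2087, 1191 and 1502 in the hypertrophic layer, again with the highest value on that array (adjusted p = 0.203, 0.736 and 0.377). That array has the high 3'/5' ratios given above, whose part in these values was not tested. Slc7a2, a related arginine carrier, was lower on every flat and every hypertrophic array than on any round array, at -0.33 ± 0.13 and -0.36 ± 0.13, which did not pass (adjusted p = 0.124 and 0.0721). Slc7a4, Slc7a6, Slc7a8 and Slc7a10 passed in no comparison either.

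Among the glucose carriers, Slc2a1, or GLUT1, is the basal and hypoxia-induced carrier of most cells. In litters 1 to 3 its signal was 2012, 6175 and 4645 in the round layer, 1492, 3339 and 2424 in the flat layer and 2221, 4332 and 3472 in the hypertrophic layer. Layers overlapped because litter 1 was low throughout, but within each litter the flat array was the lowest. Slc2a1 fell 1.68-fold from round to flat (-0.75 ± 0.14, adjusted p = 0.00317), with adjusted p = 0.289 without the litter block, and rose by 0.48 ± 0.14 from flat to hypertrophic (adjusted p = 0.0471). The rise was lost without round 2 or any 1 flat or hypertrophic array (adjusted p = 0.0594 to 0.249). Hypertrophic minus round was -0.26 ± 0.14 (adjusted p = 0.207), and -0.44 without round 1 (adjusted p = 0.0181). With the skeletal muscle score as a covariate, flat minus round of Slc2a1 was -0.12 (adjusted p = 0.853) and hypertrophic minus flat 0.006 (adjusted p = 0.99).

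Slc2a3, the high-affinity GLUT3, was at 407, 1171 and 672 in the round layer, 522, 456 and 538 in the flat layer and 979, 926 and 1009 in the hypertrophic layer. The hypertrophic arrays lay close together and above all flat arrays, and the round arrays were scattered over the same range. Slc2a3 rose 1.88-fold from flat to hypertrophic (0.91 ± 0.26, adjusted p = 0.0419), a call lost without any 1 flat or hypertrophic array (adjusted p = 0.0523 to 0.211), and with the muscle score as a covariate the rise was 0.13 (adjusted p = 0.916). Flat minus round was -0.43 ± 0.26 (adjusted p = 0.304) and -0.80 without round 1 (adjusted p = 0.0289), and hypertrophic minus round was 0.48 ± 0.26 (adjusted p = 0.201) and 0.91 without round 2 (adjusted p = 0.0117). For hypertrophic minus flat, a second probe set of Slc2a3 gave 0.675 (adjusted p = 0.0738) and the mean of all its probe sets 0.297 (adjusted p = 0.529). That call was also lost without the litter block (adjusted p = 0.105).

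Slc2a4, the insulin-responsive GLUT4 of muscle and fat, was at 448, 225 and 324 in the round layer, 667, 664 and 1283 in the flat layer and 336, 547 and 675 in the hypertrophic layer. The flat arrays were all above the round arrays. It rose 2.47-fold (1.30 ± 0.27, adjusted p = 0.00568). The skeletal muscle score moved in the same way, from -1.021 to -0.218 on the round arrays to 0.42 to 1.459 on the flat arrays, and with it as a covariate the difference of Slc2a4 was -0.27 (adjusted p = 0.786). Without round 1, hypertrophic minus flat was -0.70 (adjusted p = 0.0206) and hypertrophic minus round 1.04 (adjusted p = 0.00391), against -0.70 ± 0.27 (adjusted p = 0.127) and 0.60 ± 0.27 (adjusted p = 0.131) with all arrays. Hypertrophic minus round was also past the threshold without hypertrophic 1, at 0.91 (adjusted p = 0.0472). Slc2a8, Slc2a10 and Slc2a12 passed in no comparison, although a second probe set of Slc2a10 fell from round to flat (-0.74, adjusted p = 0.0404).

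**Figure D4:**
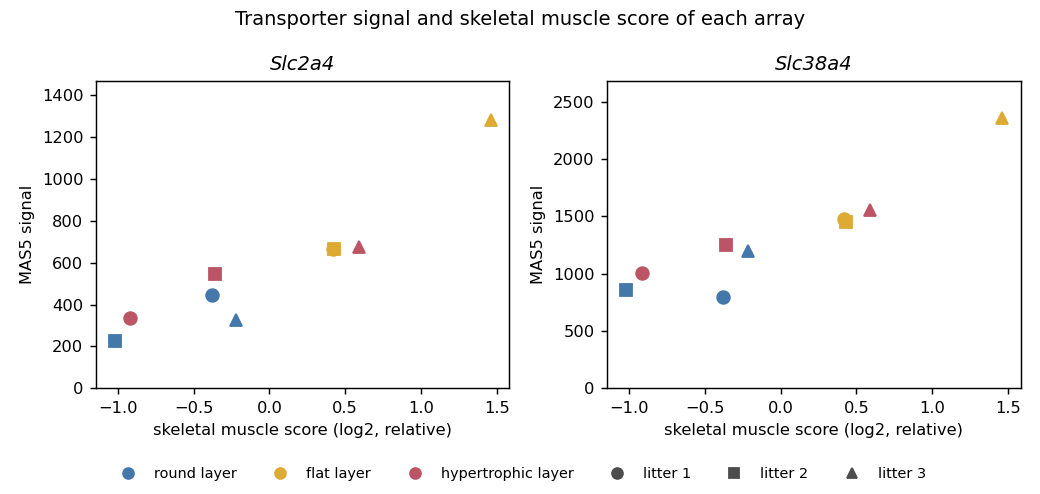
Signal of Slc2a4 and Slc38a4 (vertical axis, MAS5 units) against the skeletal muscle score of the same array (horizontal axis, log2 units, averaged over 18 markers and centred on the 9 arrays), coloured by layer. The flat array of litter 3 has the highest score, 1.459, and the highest signals, 1283 and 2358.

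Monocarboxylate carriers move lactate, pyruvate and ketone bodies with protons. Slc16a1, or MCT1, was at 1738, 1538 and 1488 in the round layer, 1366, 1332 and 1795 in the flat layer and 1438, 1569.9 and 1796 in the hypertrophic layer with full overlap of the layers (adjusted p = 0.722, 0.735 and 0.972). Slc16a3, the lactate exporter MCT4 of glycolytic cells, was at 347, 514 and 908 in the round layer, 379.6, 584 and 949 in the flat layer and 285, 706 and 954 in the hypertrophic layer, and differed between litters rather than layers (adjusted p = 0.701, 0.93 and 0.778). Slc16a7, the high-affinity MCT2, was at 112, 102 and 40.5 in the round layer, 151, 114 and 109 in the flat layer and 402, 382 and 339 in the hypertrophic layer, with every hypertrophic array above the rest. Its log2 mean was 6.72 in the round layer, below the filter of 7.212, 7.22 in the flat layer and 8.64 in the hypertrophic layer. Slc16a7 thus entered the test through the layer where it is high, and its round signals are at the level of untested carriers. It rose 3.78-fold from round to hypertrophic (1.92 ± 0.30, adjusted p = 0.000488) and 2.67-fold from flat to hypertrophic (1.42 ± 0.30, adjusted p = 0.00888; 1.28 and adjusted p = 0.0781 without hypertrophic 3). Embigin, Emb, the membrane glycoprotein that escorts MCT2 to the cell surface, rose too, from 345, 607 and 263 on the flat arrays to 1483, 2039.5 and 1435 on the hypertrophic arrays (2.02 ± 0.24, adjusted p = 0.000276), and by 2.12 ± 0.24 over the round layer (adjusted p = 4.81e-05). Of the osteoclast markers, 8 of 9 rose from flat to hypertrophic, whereas of the 10 macrophage markers 3 rose and 1 fell (median -0.148), and their part in the values of Slc16a7 and Emb was not tested. Basigin, Bsg, the partner of MCT1 and MCT4, was at 0.15 ± 0.11 and 0.00 ± 0.11 (adjusted p = 0.43 and 0.991).

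Litters differed in several sugar and amino acid carriers. A test for litter was added after the values were seen. By limma's F test over litters, with layer in the model, 7 of 47 transporters (14.9%) passed, against 5.14% of all tested genes. Slc2a1 was higher in litters 2 and 3 than in litter 1 by 1.24 ± 0.14 and 0.84 ± 0.14 (adjusted p = 0.00402), in each of the 3 layers. Slc16a3 was higher by 0.79 ± 0.18 and 1.42 ± 0.18 (adjusted p = 0.00457), also in each layer. These 2 calls were kept with each array left out in turn. Slc7a1 was lower in litters 2 and 3, at -0.85 ± 0.17 and -0.80 ± 0.17 (adjusted p = 0.0214), which was lost without round 1, flat 1, flat 3 or hypertrophic 2 (adjusted p = 0.0537 to 0.0812). The calls of Slc2a8, Slc38a4, Slc38a10 and Slc43a2 had adjusted p of 0.0332 to 0.048. That of Slc2a8 was lost without any 1 array, that of Slc38a4 without any 1 but round 1, that of Slc43a2 without any 1 but round 3, and that of Slc38a10 without round 3, flat 1, flat 3 or any 1 hypertrophic array. The number of transporters past the threshold fell to 2 without flat 1 or flat 3, where all tested genes past it fell from 582 to 70 and 118.

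**Figure D5:**
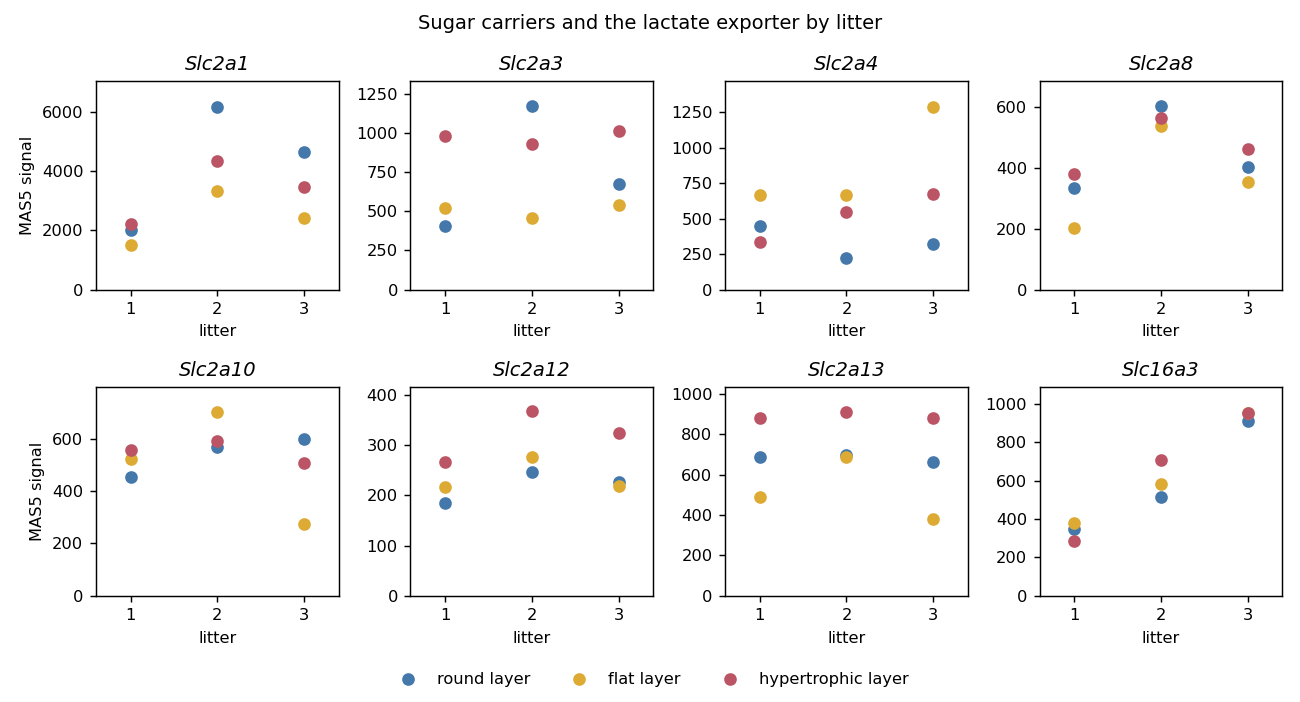
Signal of 7 glucose and inositol carriers and of Slc16a3 (vertical axis from 0, MAS5 units) in litters 1, 2 and 3, with a point per array coloured by layer. Slc2a1 and Slc16a3 are lower in litter 1 in every layer, for Slc16a3 at 285 to 379.6 in litter 1 and 908 to 954 in litter 3.

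The promoters of these carriers are shown because both are known targets of hypoxia-inducible factor. The 250 bases before the start of Slc2a1 lie at chr4:119108495-119108744 and those of Slc16a3 at chr11:120948817-120949066, both on the plus strand (GRCm38.p6, RefSeq). Capitals mark ACGTG or GCGTG, the core of a hypoxia response element, or its reverse complement.
Slc2a1: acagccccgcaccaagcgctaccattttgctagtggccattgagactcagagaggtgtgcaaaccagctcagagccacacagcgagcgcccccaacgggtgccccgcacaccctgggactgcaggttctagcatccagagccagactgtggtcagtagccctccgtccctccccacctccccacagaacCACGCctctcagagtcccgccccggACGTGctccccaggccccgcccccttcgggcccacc
Slc16a3: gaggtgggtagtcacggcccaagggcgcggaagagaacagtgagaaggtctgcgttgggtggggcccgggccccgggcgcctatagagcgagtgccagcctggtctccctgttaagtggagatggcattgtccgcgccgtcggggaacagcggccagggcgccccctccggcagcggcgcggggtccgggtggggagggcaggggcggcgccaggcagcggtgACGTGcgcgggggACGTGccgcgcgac
Slc2a1 holds GCGTG 61 and ACGTG 36 bases before its start, and Slc16a3 holds ACGTG 27 and 14 bases before its start. Of 34 tested transporters with a window in the table, 21 hold either core in at least 1 window. By window the share was 24 of 46 (52.2%), against 38.6% of all 32851 windows. For the transporters past the threshold in a layer comparison it was 9 of 21 windows (42.9%), near the share of all windows. The E-box CACGTG, which contains ACGTG, was found in 4 of the 46 windows, in 0 of those 21 and in 6.02% of all windows.

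Enzymes and sensors that use what the carriers bring in were followed through lists of genes. Of 16 tested hypoxia response genes, 6 fell and 0 rose from round to flat (37.5% of the list, against 17% of all tested genes; median -0.43), and 7 fell and 2 rose from round to hypertrophic (56.2% against 25.1%; median -0.29). Car9, the carbonic anhydrase that disposes of acid, was at 599, 1714 and 1338 on the round arrays and 74.6, 248 and 153 on the hypertrophic arrays (-2.74 ± 0.19, adjusted p = 7.07e-07). Ddit4, an inhibitor of mTORC1, rose instead by 1.58 ± 0.21 (adjusted p = 0.000178). Of 19 glycolysis and lactate genes, 4 rose and 2 fell from round to flat (31.6% against 17%). The muscle isoform of phosphofructokinase, Pfkm, rose by 1.15 ± 0.16 (adjusted p = 0.000337) and the platelet isoform, Pfkp, fell by 0.69 ± 0.14 (adjusted p = 0.00549). Muscle marker sums rose in the same comparison, and with the muscle score as a covariate Pfkm was at 0.55 (adjusted p = 0.362) and Pfkp at -0.79 (adjusted p = 0.228).

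Of 15 tested genes of amino acid synthesis, 5 rose and 1 fell from round to flat (40% against 17% of all tested genes; median 0.15). From round to hypertrophic 4 rose and 0 fell, 26.7%, which is near the 25.1% of all tested genes. Psat1, of serine synthesis, rose by 0.75 ± 0.14 and 0.89 ± 0.14 (adjusted p = 0.00259 and 0.000554). Asns, asparagine synthetase, was at 0.75 ± 0.17 and 0.56 ± 0.17 (adjusted p = 0.0106 and 0.032), calls lost without round 2 or round 3, and also without flat 3 (flat minus round, adjusted p up to 0.0713) or hypertrophic 2 or 3 (hypertrophic minus round, adjusted p up to 0.176). Among 16 ATF4 and amino acid response genes, 6 rose and 1 fell from round to hypertrophic (43.8% against 25.1%), with Chac1, which degrades glutathione, at 1.92 ± 0.22 (adjusted p = 5.27e-05) and Vldlr at 1.84 ± 0.19 (adjusted p = 1.99e-05). Of 14 glutathione and cystine genes 4 rose and 0 fell, 28.6% and near the share of all tested genes. Among them was the secreted peroxidase Gpx3 (2.41 ± 0.14, adjusted p = 2.09e-07). Atf4 itself passed in no comparison (adjusted p = 0.139, 0.898 and 0.166).

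Amino acid sensing by mTORC1 (25 genes) had 0 higher and 3 lower from round to hypertrophic, and aminoacyl-tRNA synthetases (18 genes) had 3 higher and 0 lower. These are 12% and 16.7% of the lists, below the 25.1% of all tested genes. Of the sensing genes, Rragd, a Rag GTPase, rose 2.82-fold from round to flat (adjusted p = 0.000394) and fell by 0.94 ± 0.21 from flat to hypertrophic (adjusted p = 0.0122), in the order of the muscle score. The fall was lost without flat 3, hypertrophic 1 or hypertrophic 2 (adjusted p up to 0.0856). Glucose and insulin signalling (14 genes) had 2 higher and 3 lower from round to hypertrophic (35.7% against 25.1%), with Igf1r at -0.93 ± 0.14 and Irs1 at 0.69 ± 0.13.

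The 46 transporters below the filter had layer means between 4.32 and 219. They include 10 of 11 Slc5 genes, among them the sodium-glucose carriers Slc5a1 and Slc5a2, and 14 of 18 Slc6 genes, among them the monoamine carriers Slc6a2, Slc6a3 and Slc6a4. The cystine exchanger Slc7a11 was at 36.3, 73.3 and 43.7 in the round layer, 65.0, 21.7 and 34.4 in the flat layer and 79.9, 53.5 and 55.0 in the hypertrophic layer, with overlapping layers. The liver glucose carrier Slc2a2 lay between 3.09 and 18.1 on all arrays. The layer mean above 200 was that of Slc6a13, a GABA carrier, in the flat layer (160.1, 97.5 and 400.4), where the array of litter 3 stood above the rest. None of these 46 genes was tested.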

How the data were processed

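The 3 layers of 3 litters were hybridised to 9 Affymetrix mouse genome arrays. The deposited values are MAS5 signal intensities made with Affymetrix Expression Console, per the submitters' processing notes (their versions are not given in the sources used here). The deposited intensity of every array has the same trimmed mean (500.003, 2% left out at either end), so arrays were scaled before deposit. The number of arrays limits the precision.

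From these values, log2(signal + 26) was computed, 26 being the 20th percentile. Genes with a mean above 7.212 (11313 of 18193) entered limma 3.58.1 (R 4.3.3). The model held layer and, as a block, litter, with trended variance moderation (4 residual and 8.15 prior degrees of freedom) and Benjamini-Hochberg adjustment within each comparison at a threshold of 0.05. Every adjusted p is from limma, two-sided for the layer differences, and the fit was tested on simulated data. Standard errors of log2 differences had a median of 0.179.

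The series text says that the triplicates are 3 litters. That arrays of the same replicate number share a litter is inferred from it. Deviations from layer means correlated at 0.167 to 0.517 in the 9 pairs of arrays of the same number and at -0.434 to 0.081 in the 18 pairs of different numbers. Deviations cancel within a layer, so the second range leans negative when the first is positive. These correlations cannot tell a shared litter from a shared processing batch.

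The muscle score is the mean log2 value of 18 markers relative to the 9 arrays. Members and gene lists were chosen with earlier results of these data known. Transporters past the threshold were named, as were 15 well-known carriers whatever their result, and up to 4 genes of a pathway list by the size of their difference. Atf4 and Bsg, and the carriers that passed in no comparison, were named after their values were seen. Alternatives covered the pseudocount, filter, scaling, probe set, variance trend, litter block, muscle score and each array.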

Additional observations from a re-analysis of the deposited data

How the results depend on the processing

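In the main setting 5 were higher and 4 lower in flat minus round (9 in all), 8 and 1 in hypertrophic minus flat (9), 9 and 6 in hypertrophic minus round (15), and 17 passed the F test over layers. With the muscle score as a covariate the first 2 comparisons had 0 higher and 1 lower (1 in all) and 1 higher and 0 lower (1), and 476 and 238 of all tested genes in place of 1926 and 1283. Without the litter block, flat minus round had 2 lower, hypertrophic minus flat 5 higher and 0 lower (5), and hypertrophic minus round 5 higher, while all tested genes numbered 935, 553 and 1824, and 1789 in the F test. With the mean of all probe sets of a gene there were 3 higher in flat minus round, 3 higher and 0 lower (3) in hypertrophic minus flat, and 5 higher (9 in all) in hypertrophic minus round, with 11 in the F test. A stricter filter gave 2 higher, 5 higher and 2 lower, and 4 higher (8), with 10 in the F test, over fewer genes. Hypertrophic minus flat had 5 higher without a filter, 0 lower with median centring, and 2 lower with a pseudocount of 104, with quantile normalization and with round 1 and flat 3 left out together. The counts with the mean of all probe sets, the stricter filter and these last settings have no count of all tested genes beside them here. They are not read as a result about the transporters. Adding the symbols that end in a letter changed no count.

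Leaving out 1 array in turn gave 3 to 4 higher in flat minus round, 2 to 8 higher and 0 to 3 lower (3 to 11 in all) in hypertrophic minus flat and 5 to 9 higher in hypertrophic minus round. All tested genes ranged over 1225 to 1956, 591 to 1658 and 1770 to 2924 in the 3 comparisons. Of 33 called differences of a transporter, 17 were kept with each array left out and 10 in every alternative that tested the gene (18 to 20 of 20).

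The test for litter was chosen after the data were seen, as were its alternatives. It had 7 transporters and 582 of all tested genes, and without each array 2 to 5 and 70 to 625. With no filter it had 4 transporters and 401 of all tested genes, and with median centring 4 and 653. With round 1 and flat 3 left out together it had 2 transporters and 346 of all tested genes.

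With the muscle score as a covariate, flat minus round turned to -0.27 for Slc2a4, -0.061 for Asns, -0.12 for Farsb and -0.26 for Gys1, and hypertrophic minus flat to 0.10 for Glul, 0.006 for Pygm and -0.12 for Vldlr. Pfkp turned to 0.12 in flat minus round with the mean of all probe sets. The cause of these changes was not tested. Low signals limit the 46 untested carriers.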

Other observations

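The difference between litters in Slc2a1 and Slc16a3 was also seen in genes of the same metabolism, tested for litter after their values were seen. Of 16 hypoxia response genes 7 passed (43.8%) and of 19 glycolysis and lactate genes 6 passed (31.6%), against 5.14% of all tested genes. Ankrd37 was higher in litters 2 and 3 than in litter 1 by 1.86 ± 0.23 and 1.53 ± 0.23 (log2, SE, adjusted p = 0.00416, limma F test), the carbonic anhydrase gene Car9 by 1.40 ± 0.19 and 1.01 ± 0.19 (adjusted p = 0.00535), and Bnip3, a mitophagy receptor, by 1.08 ± 0.16 and 1.07 ± 0.16 (adjusted p = 0.00482). Pfkl, the liver isoform of phosphofructokinase, was higher by 1.09 ± 0.15 and 0.97 ± 0.15 (adjusted p = 0.00447), and Ldha, the lactate dehydrogenase subunit of glycolytic tissue, by 0.43 ± 0.12 and 0.66 ± 0.12 (adjusted p = 0.0219). The heme oxygenase gene Hmox1 went the other way, at -1.44 ± 0.17 and -1.08 ± 0.17 (adjusted p = 0.00402).

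These counts depend on single arrays. The hypoxia response genes numbered 4 without round 1, round 2, flat 3 or hypertrophic 3 and 3 without flat 1, and the glycolysis genes 2 without flat 1 and 3 without flat 3. Pfkm and Pygm, both muscle isoforms, were higher in litter 3 by 1.41 ± 0.16 and 1.84 ± 0.23, and in each layer the array of litter 3 also had the highest muscle score (-0.218, 1.459 and 0.59). No label gives the birth order, handling or interval to freezing of a litter, and their part was not tested.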
